A study of Mus musculus with 6 samples.

Results

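Oxidative phosphorylation runs on protein complexes of the inner mitochondrial membrane. Complex I (NADH dehydrogenase) and complex II (succinate dehydrogenase) pass electrons to ubiquinone, complex III (cytochrome bc1) passes them on to cytochrome c, and complex IV (cytochrome c oxidase) hands them to oxygen. Complex V (ATP synthase) spends the resulting proton gradient to make ATP. Most subunits are encoded in the nucleus and imported, a few are encoded in mitochondrial DNA, and complexes II, III and IV carry heme groups. Macrophages take up heme when they clear red blood cells, and activated macrophages are known to shift the balance between respiration and glycolysis.

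The genes described here are the nuclear genes of complexes I to V: symbols starting with Ndufa, Ndufb, Ndufc, Ndufs, Ndufv, Uqcr, Cox4i, Cox5, Cox6, Cox7, Cox8 or Atp5, with Sdha to Sdhd and Cyc1. They numbered 90 of the 19938 genes that had a probe set of their own on the array. Complex I had 36 genes, complex II 4, complex III 9, complex IV 17 and complex V 17, and the remaining 7 were Ndufaf1 to Ndufaf7, assembly factors of complex I rather than subunits. A gene was kept for analysis where at least 1 array reached the median of all values, a log2 value of 5.37, which left 85 of the 90 and 11516 of all genes. The 5 left out were Cox4i2, Cox7b2, Cox8b, Cox8c and Ndufa4l2, which lay below 5.37 on each of the 6 arrays.

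The 6 arrays came from bone marrow cells of Spic(igfp/igfp) mice grown for 6 days with GM-CSF at 20 ng/ml, a growth factor that yields macrophages and dendritic cells, and 10% fetal calf serum. Heme was then added at 80 µM, a unit that the labels type as µm, while control cultures got its vehicle, which was NaCl at 0.15 M containing NH4OH at 10%. The adherent cells were taken after 6, 24 and 72 h, giving heme and vehicle arrays at each time with 1 array per treatment and time. All groups carry the same Spic genotype, so no wild-type cells were analysed here, and no source used here says what the igfp allele carries. The labels do not tell if different mice or culture dishes supplied the arrays, and the number of arrays limits the precision of every value below.

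Values are the authors' normalized log2 expression values, and differences are heme minus vehicle on that scale. Array medians ran from 5.34 to 5.45, and the heme array at 6 h had both the highest median (5.45) and the smallest spread (SD 2.19, against up to 2.25). The macrophage markers Cd68, Csf1r and Lyz2 were bright on all arrays, at 11.29, 10.64 and 13.18 on the heme array and 11.67, 10.52 and 12.92 on the vehicle array at 6 h. The 7 macrophage markers had median differences of -0.17, 0.03 and 0.15 at 6, 24 and 72 h, and 1 of them was called higher with heme. Erythroid and lymphocyte markers were below 5.37 on every array. The 8 neutrophil markers had median differences of 0.30, 1.42 and 0.07, and did not all follow the same order over time. S100a9, a calcium-binding protein of granulocytes, read 12.13, 11.66 and 8.30 with heme at 6, 24 and 72 h, against 12.08, 9.53 and 7.25 with vehicle. Csf3r, the receptor of G-CSF and the 1 marker of the 8 called higher with heme, was instead highest at 72 h, with 6.37, 7.73 and 9.04 with heme, against 5.4, 6.73 and 7.63 with vehicle. Mpo, a granule enzyme, stayed near the level of 5.37, with 5.32, 5.63 and 5.32 with heme, against 5.33, 5.42 and 5.53 with vehicle. The summed level of the 8 markers, in which S100a8 and S100a9 are among the brightest on every array, was 13.50, 12.97 and 11.05 (log2) with heme, against 13.29, 11.03 and 10.26 with vehicle. The part of a change in cell types in the results below was not tested, and in bulk RNA fewer cells of a type and less RNA per cell cannot be told apart.

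The first comparison asked how the 5 complexes stood in heme-treated cells relative to vehicle at each time. At 6 h nearly all of their genes were lower with heme by a small amount, at 24 h most of them were slightly higher, and at 72 h they were split. Of the 85 genes kept, 79 were below 0 at 6 h, 30 at 24 h and 47 at 72 h. Over all genes kept the shares below 0 at those times were 63.5%, 53.2% and 44.7%. The 78 subunits had median differences of -0.35, 0.10 and -0.03 in the same order, beside medians of -0.10, -0.02 and 0.03 for all genes kept. Centring each array on its own median shifted the median of all genes at 6 h to -0.22. Relative to the median of all genes, the subunits stood at -0.25 at 6 h, with 70 of 78 below that median, a distance that such centring cannot change. It was -0.20 with cyclic loess (68 of 78 below) and -0.21 with a second quantile normalization (69 of 78). Genes of similar brightness (1467 genes between 8.69 and 10.55, an interval chosen after seeing the data) had medians of -0.14, -0.05 and 0.03. With 1 array per treatment at each time, none of these differences can be tested against replicate error.

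**Figure D1:**
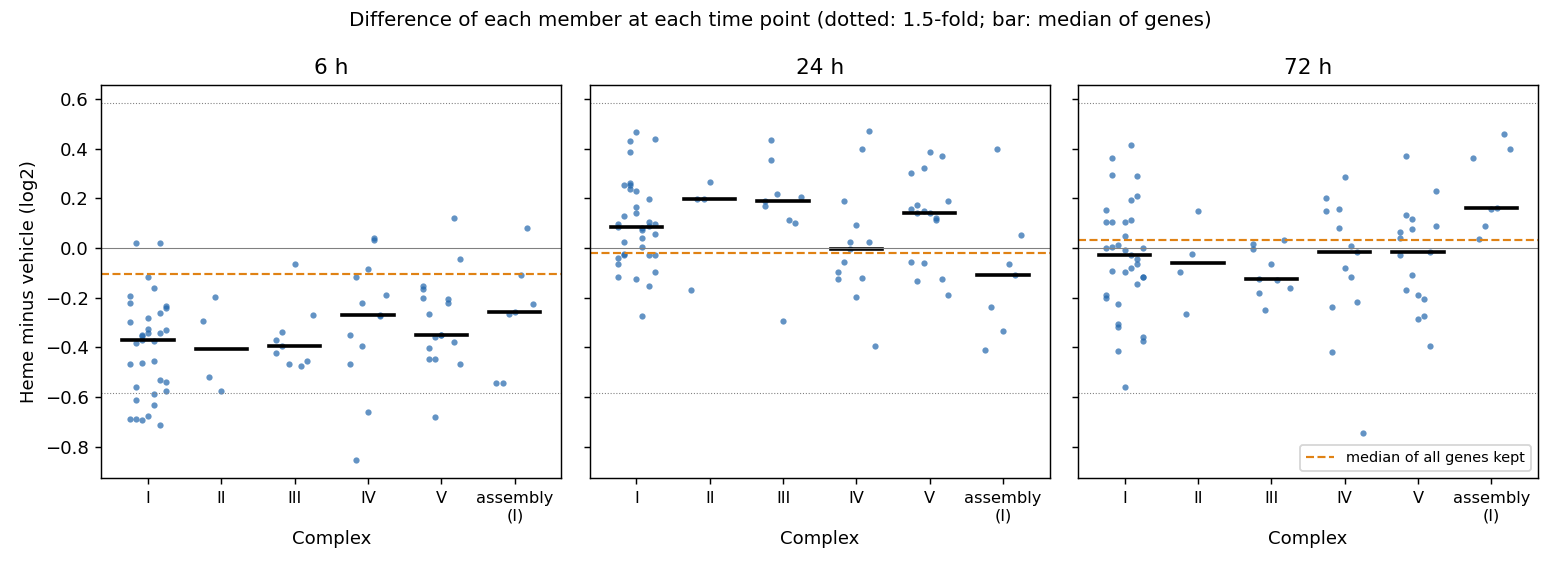
Each point is 1 gene kept, plotted as the heme minus vehicle difference (log2, y axis) for complexes I to V and the complex I assembly factors (x axis) at 6, 24 and 72 h. Black bars are medians, the dashed line is the median of all 11516 genes kept and dotted lines mark 1.5-fold. At 6 h the medians of the 5 complexes lie between -0.41 and -0.27, and at 24 h between 0.00 and 0.20.

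The 5 complexes had similar medians at 6 h. Complex II was at -0.41 (4 of 4 genes below 0), complex III at -0.40 (9 of 9), complex I at -0.37 (33 of 35), complex V at -0.35 (16 of 17) and complex IV at -0.27 (11 of 13). These correspond to levels 1.33, 1.31, 1.29, 1.28 and 1.2 times lower with heme. At 24 h complex II (0.20), complex III (0.19), complex V (0.14) and complex I (0.08) were above 0, and complex IV was at 0.00. At 72 h the medians were -0.06 for complex II, -0.13 for complex III, -0.02 for complex IV, -0.02 for complex V and -0.03 for complex I. Averaged over the 3 times, the medians were -0.11 ± 0.24 for complex I, -0.09 ± 0.30 for complex II, -0.11 ± 0.29 for complex III, -0.10 ± 0.15 for complex IV and -0.08 ± 0.25 for complex V (SD, n = 3 time points). The spread between times was thus larger than each mean, and the means of the complexes lay closer to each other than that spread.

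A decrease of 1.5-fold or more with heme was more common among these genes than over all genes kept at 6 h, but not at 24 or 72 h. Increases that large were absent at every time. At 6 h 11 of the 85 genes were lower with heme by 1.5-fold or more and none was higher, beside 6.89% of all genes kept that were lower and 3.36% that were higher. At 24 h no gene of the complexes passed 1.5-fold in either direction, beside 2.83% of all genes that were lower and 3.7% that were higher. At 72 h 1 gene, Cox6b2, was lower and none was higher, beside 2.67% of all genes that were lower and 4.21% that were higher. The 11 genes at 6 h comprised 8 of complex I (Ndufa9, Ndufb2, Ndufb5, Ndufb9, Ndufb10, Ndufs6, Ndufs8 and Ndufv1), 2 of complex IV (Cox7a1 and Cox7a2l) and Atp5c1 of complex V.

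Over all 3 times together, none of the 85 genes passed the test for heme against vehicle. The test was limma's moderated linear model with treatment and time as terms, Benjamini-Hochberg adjusted over all genes kept. It called 198 genes, 1.72% of those tested, of which 130 were higher and 68 lower with heme. At an unadjusted p under 0.05 it picked 1 gene of the complexes (Cox6b2) and 1223 of all genes. These p-values set the mean difference against how far it varied between the 3 times. limma draws that spread for each gene towards the spread pooled over all genes (prior 7.17, 2 residual degrees of freedom). They do not measure an error between replicates. The mean difference over the times was below 0 for 78 of the 85 genes, with a median of -0.09. Over all genes kept 58.6% were below 0, with a median of -0.035. The value for the 85 genes rests on the 6 h pair. Without that pair the mean of the medians was 0.028, 0.067, 0.032, -0.009 and 0.062 for complexes I to V.

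Complex I takes electrons from NADH through a flavin and a chain of iron-sulfur clusters held by its core subunits. The 6 core subunits measured had median differences of -0.50, 0.12 and 0.00 at 6, 24 and 72 h. Ndufv1, which binds the flavin and NADH, read 8.15, 8.86 and 8.51 with heme at 6, 24 and 72 h, against 8.78, 8.82 and 8.40 with vehicle. Ndufs8, an iron-sulfur protein, read 8.43, 9.05 and 9.02 with heme, against 9.10, 8.83 and 8.97 with vehicle. In both genes the heme array at 6 h was the lowest of the 6 arrays, and at 24 and 72 h heme was higher by 0.23 at most. Ndufs8 (chr19:3908863-3912774) and Ndufv1 (chr19:4007499-4012755, both GRCm38.p6) were the only genes of the complexes with neighbouring starts and ends less than 100000 bases apart.

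The remaining core subunits differed among themselves. Ndufs1, which carries several iron-sulfur clusters, read 7.91, 8.14 and 8.38 with heme, against 8.37, 8.41 and 7.96 with vehicle, so heme was lower at 6 and 24 h and higher at 72 h. Ndufs7, next to the ubiquinone site, had the opposite order after 6 h, with 8.48, 9.04 and 8.39 with heme, against 8.94, 8.61 and 8.70 with vehicle. Ndufs3 read 8.66, 9.48 and 9.16 with heme, against 9.19, 9.28 and 9.20 with vehicle. Ndufv2, an iron-sulfur subunit beside Ndufv1, did not share the deficit at 6 h: it read 8.99 with heme and 8.97 with vehicle.

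The accessory subunits of complex I surround the core and are needed for its assembly and stability. The 29 kept had a median of -0.35 at 6 h, with 28 below 0. Ndufa9 (chr6:126821863-126849144, GRCm38.p6), which binds a nucleotide cofactor, was the lowest of the complex at 6 h, with 8.18, 8.85 and 8.97 with heme, against 8.89, 9.01 and 8.69 with vehicle. Ndufb2, Ndufb9 and Ndufb10, all of the membrane arm, were nearly as low at 6 h, with differences of -0.69 each. Ndufb10 read 8.69, 9.22 and 9.15 with heme, against 9.38, 9.34 and 9.05 with vehicle. Ndufb5 and Ndufs6 differed by -0.59 and -0.61 at 6 h. Ndufb5 then lay at 0.00 and -0.03, while Ndufs6, a subunit that binds zinc, was at 0.26 and 0.11 at 24 and 72 h.

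Several accessory subunits had differences of opposite sign at 24 and 72 h. Ndufa7 (chr17:33824572-33838316, GRCm38.p6) read 8.51, 9.37 and 8.37 with heme, against 8.85, 8.90 and 8.93 with vehicle. The heme values were thus both the highest and the lowest of the 6, and the vehicle values differed by 0.08 between 6 and 72 h. Ndufab1, the mitochondrial acyl carrier protein, read 8.99, 9.48 and 9.14 with heme, against 9.53, 9.05 and 9.25 with vehicle. Ndufc1 was 0.39 at 24 h and -0.42 at 72 h, and Ndufa3 was 0.09 and -0.37. Ndufa10 went the other way, with 0.13 at 24 h and 0.36 at 72 h after -0.56 at 6 h. Ndufb6 had the mean difference nearest to 0 of the complex, -0.01 ± 0.29 (SD, n = 3 time points). Ndufb7, at -0.33, 0.06 and -0.36, and Ndufv3, at -0.58, -0.03 and 0.00, averaged -0.21 and -0.20 over the times.

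Ndufa5 was the 1 accessory subunit above 0 at 6 h, with 8.48, 8.39 and 8.19 with heme, against 8.46, 8.42 and 8.29 with vehicle. Its differences were 0.02, -0.03 and -0.09. Ndufa4, long counted with complex I and since assigned to complex IV, differed by -0.30, 0.08 and -0.20. Its relative Ndufa4l2, which low oxygen is known to induce, was below 5.37 on every array.

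The assembly factors Ndufaf1 to Ndufaf7 help to build complex I but are not part of the finished enzyme. They had a median of -0.26 at 6 h (6 of 7 below 0), -0.11 at 24 h (5 of 7 below 0) and 0.16 at 72 h (7 of 7 above 0). Ndufaf1 read 7.04, 7.33 and 7.43 with heme, against 7.58, 7.74 and 7.07 with vehicle. Ndufaf2 differed by -0.54, -0.24 and 0.04, and Ndufaf4 by -0.26, -0.33 and 0.16. Ndufaf3 was higher at 24 h, by 0.40. Ndufaf7, a methyltransferase that acts on a core subunit, was higher by 0.40 at 72 h, with 6.19 with heme and 5.80 with vehicle. Ndufaf6 read 5.64 with heme at 72 h, against a vehicle value below the level of 5.37, so its difference there is at least 0.27.

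**Figure D2:**
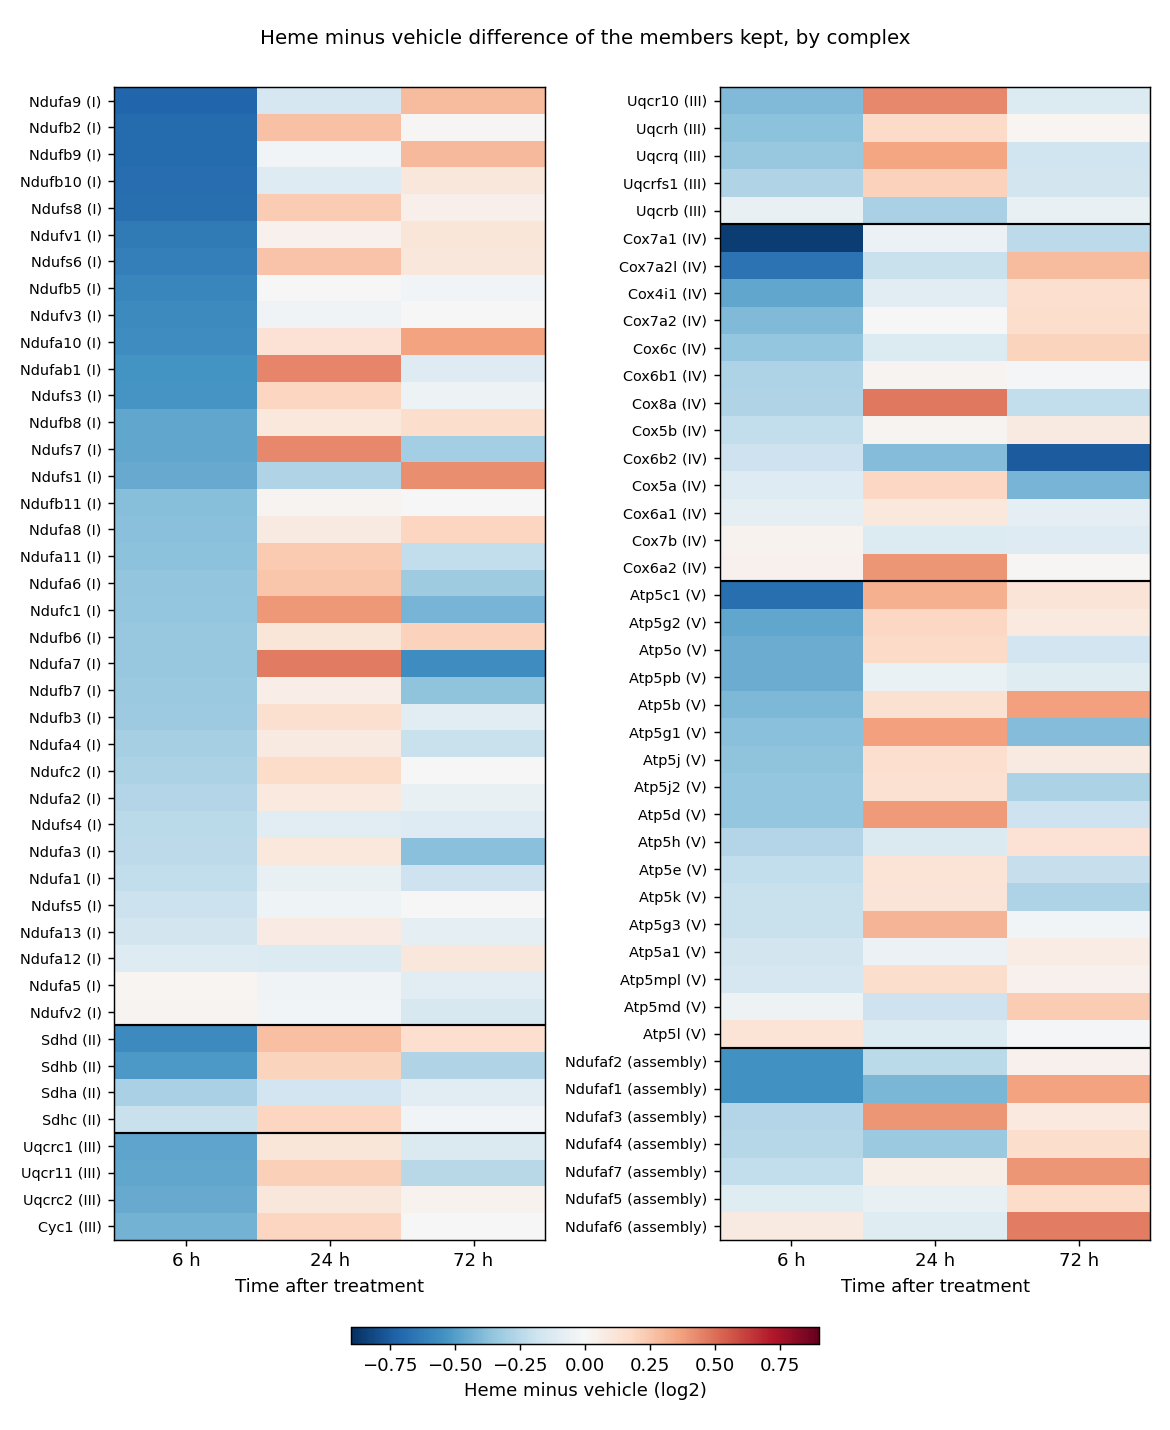
Each row is 1 of the 85 genes kept and each column a time (6, 24 and 72 h), coloured by the heme minus vehicle difference on the log2 scale (red higher, blue lower with heme). Rows are grouped by complex (in parentheses; black lines separate groups) and sorted by the difference at 6 h within each; 79 rows are below 0 at 6 h, 30 at 24 h and 47 at 72 h.

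Complex II is both an enzyme of the citric acid cycle and an entry point for electrons, and it has no subunit encoded in mitochondrial DNA. Sdhb, the iron-sulfur subunit, read 9.01, 9.83 and 9.46 with heme, against 9.53, 9.64 and 9.73 with vehicle. Sdhd, a membrane anchor that helps to hold the heme b group, read 8.30, 9.12 and 8.59 with heme, against 8.87, 8.85 and 8.44 with vehicle. Both genes were lowest on the heme array at 6 h and highest on the heme array at 24 h. Sdha, the flavoprotein that oxidises succinate, was lower at all 3 times, with 8.82, 9.22 and 9.15 with heme, against 9.12, 9.39 and 9.25 with vehicle. Its mean difference was -0.19 ± 0.10 (SD, n = 3 time points), with an adjusted p of 0.755 from limma. Sdhc, the other anchor, had the smallest difference at 6 h, -0.20, and values of 0.20 and -0.03 later.

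In complex III all 9 genes were below 0 at 6 h and 8 of 9 were above 0 at 24 h. Uqcrc1 and Uqcrc2, the core proteins, differed by -0.47 and -0.46 at 6 h and by 0.11 and 0.10 at 24 h. Uqcrc1 read 8.16, 8.61 and 8.16 with heme, against 8.64, 8.50 and 8.28 with vehicle. Cyc1, cytochrome c1, which carries a covalently bound heme, read 8.45, 8.66 and 8.43 with heme, against 8.88, 8.47 and 8.43 with vehicle. Uqcrfs1, the Rieske iron-sulfur protein, read 9.04, 9.20 and 8.60 with heme, against 9.31, 8.99 and 8.76 with vehicle. The order was the same in both redox subunits, lower with heme at 6 h and higher at 24 h.

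The small subunits of complex III included the highest and the lowest differences of the complex at 24 h. Uqcr10 read 10.43, 10.80 and 10.24 with heme, against 10.83, 10.36 and 10.37 with vehicle. Uqcr11 was at -0.47, 0.22 and -0.25, and Uqcrq at -0.34, 0.35 and -0.18. Uqcrb, which lies near the ubiquinone site, was the exception, with 9.40, 9.57 and 9.36 with heme, against 9.47, 9.87 and 9.42 with vehicle. Its difference was nearest to 0 of the complex at 6 h (-0.07) and the only one below 0 at 24 h (-0.29). Its 3 probe sets were all below 0 at 24 h and differed in sign at 6 h. Uqcrh averaged -0.06 over the times.

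Complex IV receives electrons from cytochrome c, and its nuclear subunits often exist as a ubiquitous and a tissue-restricted form. Its 10 ubiquitous or single-copy subunits had medians of -0.27, 0.01 and 0.03 at 6, 24 and 72 h. Cox4i1, the ubiquitous form of subunit 4, read 10.93, 11.63 and 11.36 with heme, against 11.40, 11.72 and 11.21 with vehicle. Cox7a2l, which joins complexes III and IV into supercomplexes, read 10.20, 10.86 and 10.95 with heme, against 10.86, 11.06 and 10.67 with vehicle. Its second probe set differed by -0.39, -0.09 and 0.16, in the same directions but with a smaller deficit at 6 h. Cox7a2 followed the same order, at -0.39, 0.00 and 0.16.

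Cox8a and Cox5a showed another order. Cox8a (chr19:7215158-7217616, GRCm38.p6) had the largest difference at 24 h among the 85 genes, with 10.22, 10.60 and 10.02 with heme, against 10.49, 10.13 and 10.24 with vehicle. Cox5a read 10.84, 10.92 and 10.51 with heme, against 10.96, 10.73 and 10.93 with vehicle, so that its largest difference was the -0.42 at 72 h. Cox5b had a mean difference of -0.04 ± 0.16 and Cox6a1 of -0.02 ± 0.10 (SD, n = 3 time points). Cox7b was at 0.03 at 6 h, but its second probe set was at -0.09.

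The tissue-restricted forms of complex IV were dim. Cox7a1 (chr7:30184171-30186030, GRCm38.p6), known as the heart and skeletal muscle form, had the largest deficit of the 85 genes at 6 h, with 6.93, 7.50 and 6.50 with heme, against 7.78, 7.56 and 6.74 with vehicle. Of the 4 muscle markers examined, Myh6 and Actn2 were below 5.37 on every array, and the 2 kept, Ckm and Mb, differed by 0.61 and -0.18 at 6 h. Cox6a2, also a muscle form, read 6.82, 6.79 and 6.36 with heme, against 6.78, 6.39 and 6.35 with vehicle. Cox6b2, known as a testis form, was lower with heme at all 3 times, with 5.99 and 6.28 with heme at 6 and 24 h, against 6.18 and 6.68 with vehicle. At 72 h its heme value lay below the level of 5.37 and its vehicle value was 6.05, so it was lower by at least 0.68 there. Its mean difference over the times is therefore also a bound, lower by at least 0.42, and it was still the lowest of the 85 genes, with an adjusted p of 0.268 from limma on the values as deposited. Cox4i2, Cox8b and other restricted forms lay below 5.37 throughout.

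**Figure D3:**
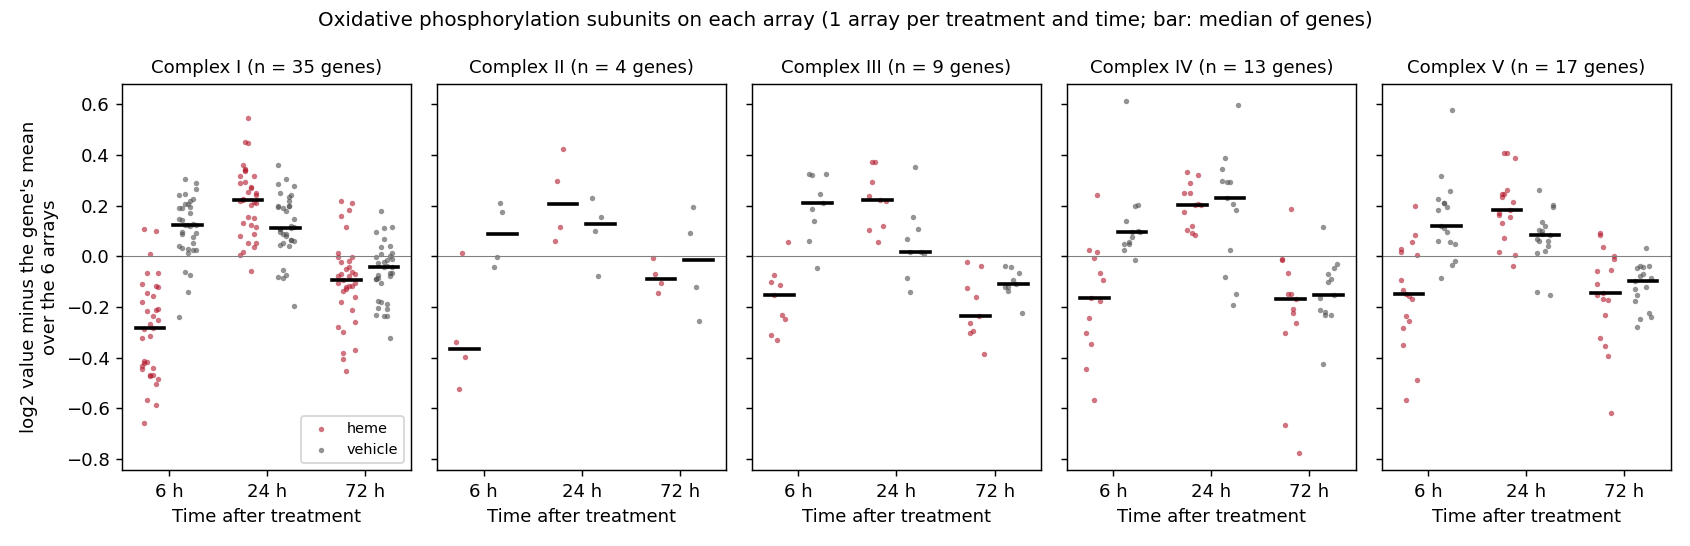
Each point is 1 subunit on 1 array, plotted as its log2 value minus its own mean over the 6 arrays (y axis), for heme (red, left) and vehicle (grey, right) at 6, 24 and 72 h in each complex; black bars are medians. In all 5 complexes the heme median is lowest or second lowest at 6 h, and both treatments are below 0 at 72 h.

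Complex V couples a membrane rotor to a catalytic head. The head and central stalk (5 genes) had medians of -0.35, 0.14 and 0.06 at 6, 24 and 72 h. Atp5c1, the rotating gamma shaft (chr2:10056030-10080510, GRCm38.p6), had the largest deficit of the complex at 6 h, with 10.11, 11.09 and 10.71 with heme, against 10.79, 10.76 and 10.60 with vehicle. Atp5b, the catalytic beta subunit, read 10.53, 11.05 and 10.90 with heme, against 10.93, 10.91 and 10.53 with vehicle. Atp5a1, the alpha subunit, differed by -0.17, -0.05 and 0.06. The alpha, beta and gamma subunits, present in fixed numbers in the finished enzyme, thus had unequal differences at 6 h. Atp5d, the delta subunit of the central stalk, was higher at 24 h by 0.39.

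The c-ring is encoded by Atp5g1, Atp5g2 and Atp5g3, whose mature proteins are identical and whose genes can be told apart by their import sequences and untranslated regions. The 3 genes were all below 0 at 6 h (-0.38, -0.47 and -0.20) and above 0 at 24 h (0.37, 0.19 and 0.30). Atp5g1 (chr11:96072793-96075694, GRCm38.p6) read 10.60, 10.62 and 9.78 with heme, against 10.98, 10.25 and 10.18 with vehicle. Atp5g2 read 10.62, 11.50 and 11.11 with heme, against 11.09, 11.31 and 11.03 with vehicle. Atp5g1 was therefore lowest at 72 h in both treatments, and Atp5g2 was lowest on the heme array at 6 h. Atp5g3 averaged 0.03 over the times.

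The peripheral stalk holds the head still. Its 4 genes were below 0 at 6 h, with a median of -0.40, and Atp5pb had the lowest mean difference of complex V, -0.21 ± 0.21 (SD, n = 3 time points). Atp5pb read 9.97, 10.28 and 10.06 with heme, against 10.42, 10.34 and 10.17 with vehicle, so heme was lower at each time, although its second probe set was at 0.18 at 24 h. Atp5o was at -0.45, 0.17 and -0.17. The 5 small membrane subunits, which shape the dimer of the enzyme, had the smallest median at 6 h, -0.15. Atp5l, 1 of them, had the highest difference of all 85 genes at 6 h, 0.12, with 11.88, 11.76 and 11.74 with heme, against 11.76, 11.88 and 11.76 with vehicle. All 6 of its probe sets were above 0 at 6 h. Atp5j2 was lower by 0.35 at 6 h and averaged -0.17.

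The 24 h and 72 h differences were compared gene by gene over the 78 subunits. At 24 h 34 were above 0 and then below 0 at 72 h, 19 were above 0 at both, 12 were below and then above 0, and 13 were below 0 at both. These classes were not counted over all genes kept, so the 34 are not shown to be particular to the subunits. Taken singly, 32.1% of the subunits were below 0 at 24 h and 60.3% at 72 h, beside 53.2% and 44.7% of all genes kept. Across the 78 subunits Pearson's r between the 24 h and 72 h differences was -0.29 and Spearman's rho -0.35, whereas over all genes kept they were 0.44 and 0.15. These are descriptions across genes, which share the same 4 arrays and are not independent. Only 9 of the 78 subunits were below 0 at all 3 times, 11.5% beside 17.4% of all genes kept. For 62 subunits (79.5%) the lowest of the 3 differences was that at 6 h, as it was for 47.1% of all genes kept.

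**Figure D4:**
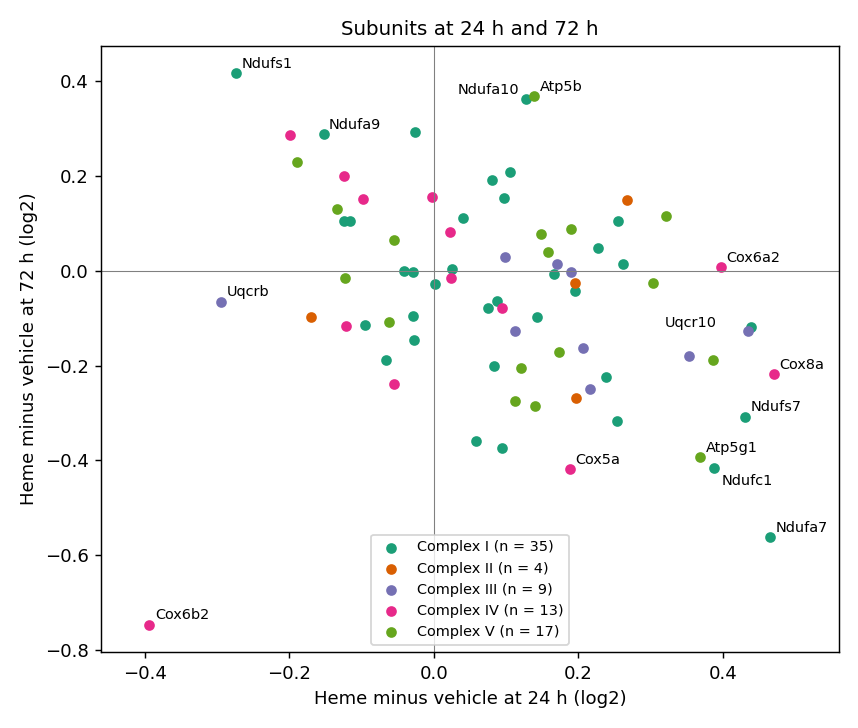
Each point is 1 of the 78 subunits kept, placed by its heme minus vehicle difference at 24 h (x axis, log2) and at 72 h (y axis, log2) and coloured by complex. The lower right field holds 34 subunits, with Ndufa7 at 0.47 and -0.56, and the share of all genes kept in that field was not counted. Cox6b2 at the lower left has a heme value below the level filter at 72 h.

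The same arrays were then read within each treatment over time. The median of the 78 subunits was 0.42 higher at 24 h than at 6 h with heme, where 72 of 78 were above 0 and 6.41% were below 0, against 43.1% of all genes kept. With vehicle it was 0.00. The value at 72 h minus that at 24 h was -0.34 with heme (75 of 78 below 0, 96.2% against 49.1% of all genes kept) and -0.21 with vehicle (66 of 78, 84.6% against 57.8%). From 6 to 72 h the medians were 0.02 with heme and -0.22 with vehicle, against 0.05 and -0.06 for all genes kept. The lowest of a subunit's 6 values was on the heme array at 6 h for 39 of 78 subunits, and for 30.4% of all genes kept. For the other 39 it was on a 72 h array. These were 30 on the heme array (38.5%, against 16.9% of all genes kept) and 9 on the vehicle array (11.5%, against 16.6%). The highest was on the heme array at 24 h for 34 (43.6%, against 16.4%). No subunit had its highest value on either 72 h array, whereas 19.4% of all genes kept had it on the heme array and 12.5% on the vehicle array at 72 h. Differences that share an array, such as those from 6 to 24 h and from 24 to 72 h, are not independent.

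Averaged over both treatments, the test for culture time called none of the 85 genes at any pair of times. Over all genes limma called 69 (0.599%) between 6 and 24 h, 65 (0.564%) between 24 and 72 h and 759 (6.59%) between 6 and 72 h. At an unadjusted p under 0.05, 13 of the 85 genes were picked between 6 and 24 h, all higher at 24 h. Another 8 were picked between 24 and 72 h and 5 between 6 and 72 h, all lower at 72 h. Of the 11516 genes kept, 1479, 895 and 2128 were picked. Among those, 815 were higher at 24 h than at 6 h, and 482 and 1051 were lower at 72 h. With higher and lower genes pooled, the counts of members involving 24 h were near the share over all genes. Counting only genes that went the same way as the members, those counts were above the share over all genes. The count from 6 to 72 h was below the share in either case. These shares were not tested against each other. Atp5g1 came nearest to the threshold, at -0.81 from 6 to 72 h (adjusted p = 0.0599, limma). It passed with the arrays centred on their medians (adjusted p = 0.0393), with the stricter level filter (0.0498) and with a variance trend (0.0499). It did not pass in the other settings tried, among them cyclic loess, a second quantile normalization and the mean of probe sets. Cox7a1 was at -0.73 (adjusted p = 0.083) and Uqcrfs1 at -0.49 (0.169). The largest differences in the other direction were 0.38 for Ndufb9, 0.34 for Ndufs5 and 0.32 for Sdhb, with adjusted p-values of 0.442, 0.326 and 0.454. Cox6b2 (-0.80) and Cox7a1 (-0.91) were called lower at 72 h than at 24 h in a fit without the 6 h arrays. That fit has 1 residual degree of freedom and leans on the spread pooled over genes (prior 46.9). The share of all genes called in it is not given here. The heme value of Cox6b2 at 72 h also lies below 5.37.

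Other genes of the mitochondrion were set beside the complexes, in lists of known function. The 76 mitochondrial ribosomal proteins, which translate the subunits encoded in mitochondrial DNA, had medians of -0.35, 0.08 and 0.04 at 6, 24 and 72 h, with 73 of 76 below 0 at 6 h. The 16 citric acid cycle enzymes had -0.43, -0.07 and 0.13, with Suclg2, a succinyl-CoA ligase subunit, at -1.18 and Idh2, the mitochondrial NADP-dependent isocitrate dehydrogenase, at -0.76 at 6 h. The 32 further assembly factors had -0.25, -0.05 and 0.03, with 24 of 32 below 0 at 6 h, beside 63.5% of all genes kept. Among the lowest, Cox19 and Surf1, both needed to build complex IV, were at -0.85 and -0.58 at 6 h. Uqcc2 and Uqcc3, needed for complex III, were at -0.62 and -0.66. Others of the list went the other way at 6 h, such as Ttc19 at 0.34 and Sco1 at 0.30. The 11 electron carriers and related proteins had -0.34, -0.01 and 0.03, and Cycs, cytochrome c itself, was at -0.21 at 6 h. The test over the 3 times called none of these genes.

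Lists of proteins from outside the mitochondrion had other values. The 59 cytosolic ribosomal proteins had medians of -0.05, -0.06 and 0.04. The 39 proteasome subunits had -0.12, 0.24 and 0.55, and 1 of them was called higher with heme.

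The 15 regulators of mitochondrial biogenesis kept, which include both nuclear transcription factors and proteins that copy or transcribe mitochondrial DNA, had medians of -0.20, -0.13 and 0.08. Tfam, which packages and transcribes mitochondrial DNA, read 6.12, 6.73 and 6.65 with heme, against 6.71, 6.97 and 6.65 with vehicle. Nrf1, a transcription factor of many respiratory genes, was at 0.28, -0.13 and 0.08, and Ppargc1a, a coactivator of mitochondrial biogenesis, lay below 5.37 on every array.

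The subunits encoded in mitochondrial DNA were represented by COX2 of complex IV and ND3 of complex I, each by its probe set of highest mean. The annotation names a further probe set for each, whose values were not compared here. COX2 read 12.80, 12.35 and 12.52 with heme, against 12.34, 12.66 and 12.72 with vehicle. ND3 read 11.63, 11.28 and 11.48 with heme, against 11.34, 11.66 and 11.70 with vehicle. Both were higher with heme at 6 h, by 0.46 and 0.29, and lower at 24 and 72 h, the reverse of the median of the nuclear subunits at 6 and 24 h. Neither passed the test over the 3 times (adjusted p of 0.986 and 0.915, limma).

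**Figure D5:**
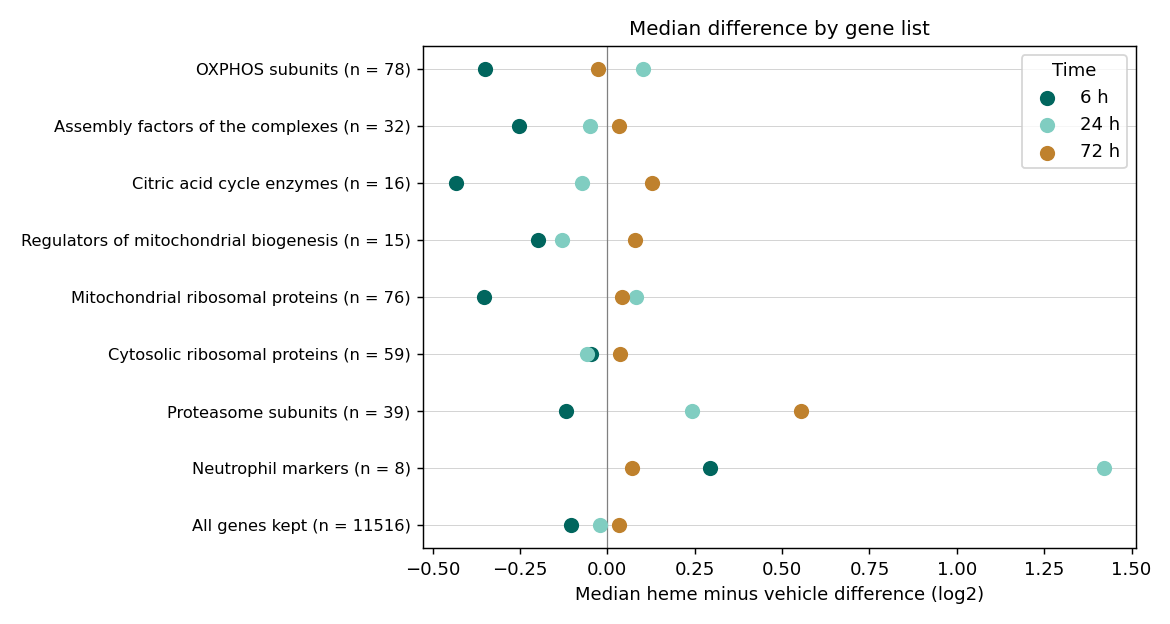
Each row is a gene list with its number of genes kept, and the points are the median heme minus vehicle difference (x axis, log2) at 6, 24 and 72 h. At 6 h the subunits and the 4 lists drawn below them, all of nuclear genes, lie between -0.43 and -0.20 and the cytosolic ribosomal proteins at -0.05; the neutrophil markers reach 1.42 at 24 h.

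The promoters were examined because most members stood lower together at 6 h. RefSeq windows of 300 bases (250 before to 50 after the gene's start, GRCm38.p6) were matched by gene ID to 73 of the 90 genes, 71 of them kept, and to 9072 of all genes kept. Motifs were searched as exact letters on both strands. GCGCATGC, the core of the NRF1 site, was in 12 of 71 windows (16.9%, against 5.6% of all genes kept). AAGATGGC, the YY1 core, was in 9 (12.7%, against 4.9%), with 8 of its 9 matches after the start. AAGGTCA, the ERR element, was in 7 (9.9%, against 3.0%). CCGGAAGT, an ETS site, was in 5 (7.0%, against 8.5%), and GGGCGGGG, an SP site, in 15 (21.1%, against 33.1%). Matches of different motifs overlapped in 0 windows, while both strands of the NRF1 core overlap where the site reads GCGCATGCGC. In addition, 20 of the 71 genes (28.2%, against 11.7%) had a coding gene starting within 1 kb on the other strand, head to head, such as Ndufa7 with Rps28, Ndufb5 with Mrpl47 and Sdhd with Timm8b.

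The sequences below show the NRF1 core in 1 subunit of each complex, the one lowest at 6 h among those with a match that begins before the start. Each is 60 bases from RefSeq (GRCm38.p6), read 5′ to 3′ along the gene's strand, with the matched bases in capitals. Ndufa8 lies at chr2:36049339-36049398, Uqcr11 at chr10:80406818-80406877, Cox6a1 at chr5:115349087-115349146 and Atp5g2 at chr15:102671056-102671115, all on the minus strand, and Sdhb at chr4:140961191-140961250 on the plus strand.
Ndufa8: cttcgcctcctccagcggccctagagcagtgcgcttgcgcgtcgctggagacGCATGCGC
Sdhb: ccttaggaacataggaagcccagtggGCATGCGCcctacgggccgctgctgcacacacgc
Uqcr11: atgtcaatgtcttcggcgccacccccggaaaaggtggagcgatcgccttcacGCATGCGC
Cox6a1: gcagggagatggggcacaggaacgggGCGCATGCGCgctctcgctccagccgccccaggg
Atp5g2: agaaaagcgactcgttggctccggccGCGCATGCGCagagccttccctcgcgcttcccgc
Counted from the gene's start, with -1 the last base before it, the matches begin at -8 in Ndufa8, -54 in Sdhb, -4 in Uqcr11, -162 in Cox6a1 and -42 in Atp5g2. Cox6a1 and Atp5g2 hold the core on both strands of 1 site. Their differences at 6 h were -0.37, -0.52, -0.47, -0.08 and -0.47 in the order printed.

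The differences were then set side by side for genes with and without a match. The 12 genes with the NRF1 core had medians of -0.36, 0.11 and -0.10 at 6, 24 and 72 h, and the 59 without it -0.35, 0.10 and -0.03. The 20 genes with a head-to-head neighbour had -0.36, 0.08 and -0.06, and the 51 without one -0.35, 0.11 and -0.02. The 9 genes with AAGATGGC had -0.45, 0.10 and -0.12, and the 62 without it -0.35, 0.10 and -0.02. None of these differences was tested. They are descriptions of letters in a window, not of binding.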

How the data were processed

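The authors deposited log2 expression values of an Affymetrix array, quantile-normalized with RMA, per the submitters' processing notes and the design text; no source used here gives versions. RMA compresses differences of dim probe sets. The platform annotation gave 1 gene for 21789 of the 35556 probe sets and several for 1621, and no gene for the other 12146. A gene was represented by its probe set of highest mean. Of the 17 members with several, all probe sets had the same sign in 14 at 6 h, 15 at 24 h and 15 at 72 h. Chromosomes and promoters came from RefSeq by gene ID, which updated 0 members' symbols.

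limma 3.58.1 in R 4.3.3 was fitted on the 6 arrays with terms for treatment and time (2 residual degrees of freedom, prior 7.17), two-sided, with Benjamini-Hochberg adjustment over 11516 genes at 0.05, and was checked on simulated data. The time in the labels pairs the arrays, so time is the block. An interaction of treatment and time leaves no residual degrees of freedom. Members, lists and the rule for named genes (the extremes of each complex and time, genes at 1.5-fold or more, and preset names) were chosen with earlier results of these data known. Figures were drawn with matplotlib 3.10.9 in Python 3.11.15.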

Additional observations from a re-analysis of the deposited data

Results flagged for a closer look

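The median difference of heme minus vehicle had opposite signs at 6 and 24 h in 4 complexes. The 24 h median minus the 6 h median was 0.454 in complex I, 0.604 in complex II, 0.585 in complex III and 0.491 in complex V. These differences were not tested, since each group holds 1 array, and the 4 complexes were measured on the same 4 arrays, so they are not separate observations. At 6 h all 4 complex II genes and all 9 complex III genes were below 0, and 8 of the 9 complex III genes were above 0 at 24 h. Neutrophil markers were higher with heme at 24 h by a median of 1.42 and the heme array at 6 h had the highest array median; the part of either in these differences was not tested.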

How the results depend on the processing

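At 6 h the complex medians were below 0 in 50 of 50 alternatives (-0.521 to -0.188). At 24 h they were above 0 in 45 of 50, the other 5 being complex IV at -0.003 or higher, and at 72 h in 3 of 50. Of 215 complex medians 203 stayed within 0.1 of the reported value, as did 1186 of 1254 differences of named genes. Centring arrays on their medians moved the 6 h medians to -0.484, -0.521, -0.51, -0.383 and -0.465 for complexes I to V, raised the members at 1.5-fold lower at 6 h to 20 (beside 12.3% of all genes), and gave 117 genes called lower. That count was 36 with cyclic loess. At a threshold of 20% lower on the linear scale 49 members were lower at 6 h (beside 24% of all genes), and at 2-fold 0 (beside 0.669%). Without the time term (no replicate block) 17 genes were called higher and 1 lower, and 0 members. Leaving out 1 pair of arrays gave 11 to 322 genes called higher and 1 to 199 lower (both fewest without the 24 h pair and most without the 6 h pair), and no member for heme. It moved the mean of the medians to between -0.199 and 0.028 (complex I), -0.234 and 0.067 (II), -0.261 and 0.032 (III), and -0.183 and 0.062 (V), with the highest values without the 6 h pair. For culture time, 2 members were called between 24 and 72 h without the 6 h pair, a fit with 1 residual degree of freedom (prior 46.9). With median-centring, the stricter filter or a variance trend, 1 member was called between 6 and 72 h. The share of all genes called for culture time in these fits is not given here. The cause of these shifts was not tested. Values below 5.37 limit Cox6b2 and Ndufaf6 to bounds.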

Other observations

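Symbols fitting the naming rule that had probe sets only together with another gene were not among the members. The 3 probe sets naming Cox7c and Gm12338 differed by 0.118, 0.049 and 0.038 at 6 h, and by -0.09, -0.046 and -0.059 at 24 h. The 2 probe sets naming Ndufb4 and Ndufb4b differed by -0.066 and -0.073 at 6 h and by 0.169 and 0.142 at 24 h. The probe set naming Ndufs5 and Ndufs5-ps differed by -0.356, -0.089 and 0.179 at 6, 24 and 72 h, beside -0.19, -0.04 and 0.00 for the probe set of Ndufs5 alone.

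The 4 fibroblast and stroma markers kept had medians of -0.213, 0.069 and 0.29 at 6, 24 and 72 h. The 4 dendritic cell markers kept had 0.117, 0.097 and -0.447, but they did not move together. Ccr7, the 1 called higher with heme, differed by 0.86, 1.84 and 0.78, and Cd24a by -0.04, -0.72 and -1.06. Itgax and Dpp4 changed sign between times, and Flt3 and Zbtb46 lay below 5.37 on every array. Chchd10, a protein of the cristae, was higher with heme at 24 h by 0.65. Polg, the mitochondrial DNA polymerase, differed by 0.19, 0.46 and 0.65 at 6, 24 and 72 h. These genes were picked out after their values were seen.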
